A study of Mus musculus with 6 samples.

Results

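N18-Fms cells stimulated with CSF-1 for 48 h were compared with the same cells stimulated for 24 h, to describe which transcripts kept rising with longer stimulation and which were raised at 24 h and lower again at 48 h. The comparison covers 21816 of the 36028 genes that had a usable probe on the array. These are the genes whose brightest probe, by its mean over all 6 arrays, was well above background on all 4 stimulated arrays. Detection in unstimulated cells was not required. Genes detected at 1 stimulated time only are left out by this rule and are described at the end of the results. N18 is 1 luciferase-expressing, neomycin-resistant subclone of the C2H line, an epithelial line derived from a prostate tumor of the TRAMP mouse. Murine c-fms, which encodes the CSF-1 receptor, was introduced with a retrovirus, and the receptor-bearing cells were selected repeatedly by flow cytometry, so all groups carry the receptor and share 1 clonal origin. All cells were grown in serum with dihydrotestosterone. Recombinant murine CSF-1 at 100 ng/mL was added for 24 h (2 arrays) or 48 h (2 arrays), or left out (unstimulated cells, which the labels also call vehicle, 2 arrays), and the RNA came from 2 independent experiments. The times are those of the sample labels, whereas the written methods name shorter ones, so "24 h" and "48 h" stand for the earlier and the later harvest.

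The CSF-1 receptor is a receptor tyrosine kinase of monocytes and macrophages. Ligand binding activates the ERK and AKT pathways, and in macrophages the signal sustains survival, division and differentiation. Many of the genes described here belong to the interferon response. Type I interferon acts through transcription factors that bind the interferon-stimulated response element (ISRE), and interferon gamma through factors that bind the gamma-activated site (GAS). Both raise antiviral effectors and the machinery that loads peptides onto MHC class I molecules, in which immunoproteasome subunits cut the peptides, TAP transporters carry them and class I heavy chains present them.

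Levels are given as the log2 of the probe's signal minus the 75th percentile of its own array, so that 0 stands for the signal of a probe at that percentile, and levels are compared within a gene only. Between 58.7% and 72% of spots per array were well above background, and 0 were saturated. On the 21816 genes, the SD of the difference between replicate arrays was 0.335 for unstimulated cells, 0.288 at 24 h and 0.332 at 48 h. In a principal component analysis of the 4 stimulated arrays, the first component held 52.4% of the variance and separated the times. Replicate 1 of the 24 h group was on another slide than the other 5 arrays, so the 48 h arrays were also compared with the 24 h array of their own slide. With 2 arrays against 2, an exact permutation test of a single gene cannot go below p = 0.333, and the p-values below come from a limma fit over all 21816 genes.

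From 24 h to 48 h, 170 genes rose and 66 fell by at least 2-fold with an unadjusted limma p-value below 0.05, which is 0.779% and 0.303% of the genes tested. At any fold change 2907 genes (13.3%) had an unadjusted p-value under 0.05, 1099 of them higher (5.04%) and 1808 lower (8.29%) at 48 h. With Benjamini-Hochberg adjustment by limma 0 genes passed 0.05, the lowest adjusted p being 0.064. This count was sensitive to the setting. It was 12 with the replicate number as a block (174 higher and 72 lower at the thresholds above), 19 with quantile normalization, 149 with median centring, 254 with normexp background correction, 318 with both normexp and quantile, and 213 with an intensity trend in the prior spread. It was 5 on genes above background on all 6 arrays, 12 without 48 h replicate 1 and 15 without 48 h replicate 2. The methods' t-test gave 2247 genes under an unadjusted 0.05 and 88 higher and 29 lower at 2-fold, with a lowest adjusted p of 0.412. "Rose" and "fell" are used below for genes that passed the unadjusted p-value and the 2-fold change. Both 48 h arrays lay above both 24 h arrays for 3313 genes (15.2%) and below them for 7140 (32.7%). In these bulk samples, fewer cells expressing a gene and less RNA per cell cannot be told apart. All groups were apart in the order unstimulated, 24 h, 48 h for 907 genes (4.16%), and the 24 h arrays lay above all others for 2871 (13.2%). The median change over all genes was -0.07, and under median centring of the arrays it was 0.11, with 299 genes higher and 27 lower. Quantile normalization gave 209 higher and 43 lower, normexp background correction 130 and 22, and the combination of both 140 and 22, so that the share of higher genes among those called, 72% here, lay between 82.9% and 91.7% in these settings. Without 24 h replicate 1, 203 genes were higher and 138 lower. Without 24 h replicate 2 there were 179 and 101, and without 48 h replicate 1 there were 277 and 124. In a larger table of 24634 genes, which also takes genes that any 1 of the 3 groups detected on its 2 arrays, 214 were higher and 346 lower. In that fit the 21816 genes themselves gave 165 higher and 65 lower. The majority of lower genes thus lay in the added genes, which were not well above background on every stimulated array, and says nothing on direction among the 21816.

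**Figure D1:**
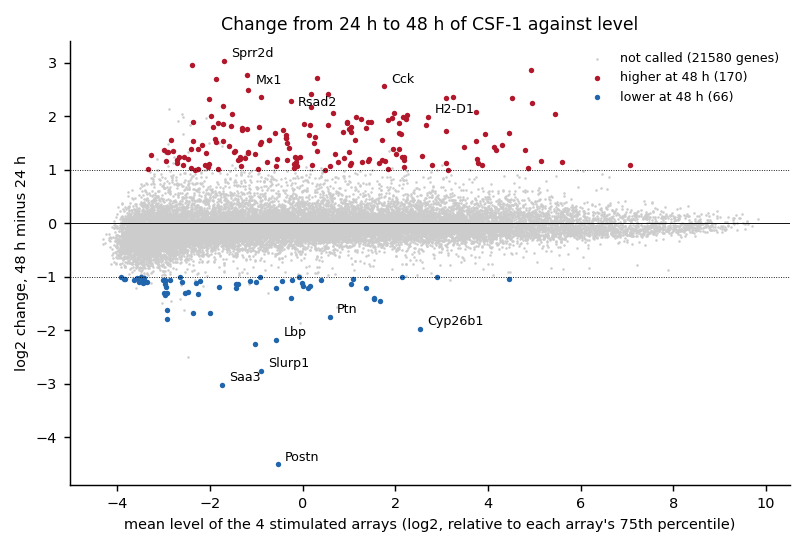
Each point is 1 of the 21816 genes, with its mean level over the 4 stimulated arrays on the x axis (log2 relative to the array's 75th percentile) and its log2 change from 24 h to 48 h on the y axis. The dotted lines mark 2-fold. The 170 genes in red rose and the 66 in blue fell. Sprr2d at 3.03 and Postn at -4.51 lie farthest from 0.

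The 236 genes that changed between the times (1.08%) were divided by what the same genes did between unstimulated cells and 24 h, where 4.72% of all genes rose and 1.71% fell by the same thresholds. The 24 h arrays enter both differences, so the division describes these arrays and is not a second test. Of the 170 genes that rose after 24 h, 97 had already risen at 24 h (kept rising), 61 had not passed the thresholds at 24 h (late rise), and 12 had fallen at 24 h (transient fall). Of the 66 that fell after 24 h, 36 had risen at 24 h (transient rise), 28 had not passed (late fall) and 2 had already fallen (kept falling). The median log2 change of the kept-rising genes was 2.88 up to 24 h, with the 22 genes dim on both unstimulated arrays at the lower limit described below for Rsad2 (3.27 as fitted), and a further 1.69 up to 48 h. Those of the transient-rise genes were 2.09 with 8 dim genes at their limit (2.14 as fitted) and -1.18. Between unstimulated cells and 48 h, 4.6% of all genes rose and 1.51% fell. At 48 h, 18 of these 36 transient-rise genes still passed the thresholds above unstimulated cells and the other 18 were within 2-fold of them. The late-rise genes had medians of 0.06 and 1.22, and 44 of the 61 passed against unstimulated cells at 48 h. The late-fall genes had medians of 0.70 and -1.08. At 48 h, 7 of these 28 passed as lower than unstimulated cells and 20 were within 2-fold of them.

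The genes named below for the largest changes were taken only if their 24 h and 48 h arrays did not overlap. Non-overlap therefore adds no support to them. All 97 kept-rising, 36 transient-rise, 61 late-rise and 28 late-fall genes had 48 h arrays that did not overlap the 24 h arrays. Because these arrays did not overlap, all 97 and all 36 necessarily kept their direction against the 24 h array of the same slide. Against that array, 86 of the 97 and 29 of the 36 differed by 2-fold or more. Several of these counts moved with single arrays. The transient rise held 87 genes without 24 h replicate 1, 59 without 24 h replicate 2 and 56 without 48 h replicate 2. The late rise held 124 genes without 48 h replicate 1 and 125 without 48 h replicate 2, and the late fall 47 without 24 h replicate 1 and 76 without 48 h replicate 1. In the transient fall there were 38 genes without 24 h replicate 1 and 27 without 48 h replicate 2, and in the kept-falling pattern 4 without 24 h replicate 1. For the kept-rising genes the counts with 1 array left out ran from 76 to 136. Among them 22 were not well above background on either unstimulated array and 14 on only 1, and requiring a level above background on all 6 arrays left 61.

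**Figure D2:**
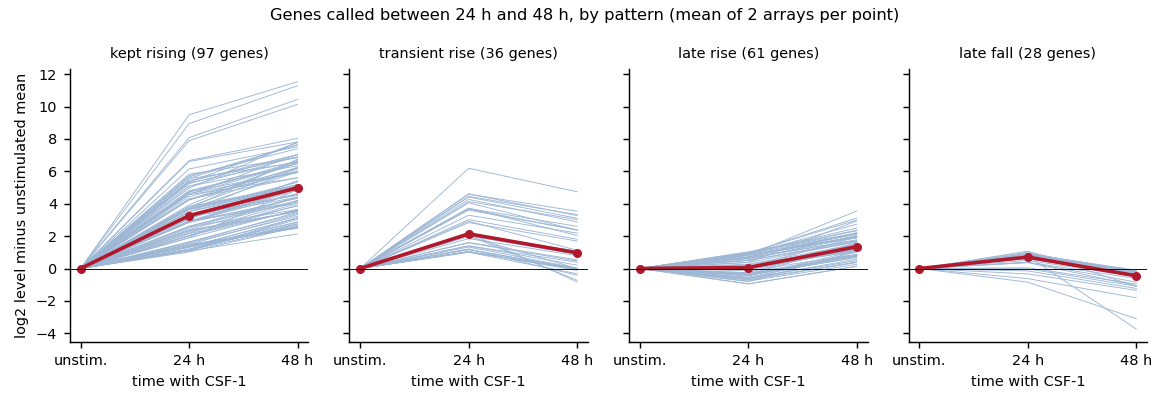
Lines show single genes and the thick line with points the median gene, as the log2 level at 24 h and 48 h minus the mean of unstimulated cells (y axis), for the 4 largest patterns. Each point is the mean of 2 arrays. The levels are as fitted, also for genes dim in unstimulated cells. The kept-rising median climbed from 3.27 at 24 h to 4.98 at 48 h (2.88 and 4.64 with such genes at their limit), whereas the transient-rise median went from 2.14 to 0.97 (2.09 and 0.84).

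Interferon-stimulated genes were prominent among those that kept rising. Of 46 measured genes on a list of interferon-stimulated genes, 17 rose and 0 fell from 24 h to 48 h, against 0.779% and 0.303% of all genes, and the median change was 0.95 against -0.07. All 46 changes were above 0, against 35.7% of all genes, and 29 had an unadjusted p-value under 0.05 and were higher, against 5.04%. Both 48 h arrays lay above both 24 h arrays for 40 of the 46, against 15.2% of all genes. The list's median change had been 3.35 up to 24 h with the 4 genes dim on both unstimulated arrays at their limit (3.55 as fitted), when 41 of the 46 passed the thresholds. Without 48 h replicate 1, 28 of the 46 rose, without 48 h replicate 2 13, and the methods' t-test called 6.

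Rsad2 (viperin, an antiviral enzyme of the endoplasmic reticulum) was not well above background in unstimulated cells, where its arrays read -5.82 and -5.47. It read -1.45 and -1.35 at 24 h and 0.02 and 1.75 at 48 h. Both later arrays lay above both earlier ones, the 48 h pair being the more widely spread, and the difference was 2.28 (SE 0.52, limma adjusted p = 0.178), or 4.87-fold. Against the unstimulated background Rsad2 was at least 10.0-fold higher at 24 h and at least 48.8-fold higher at 48 h. Such limits set each dim array at the lowest signal called well above background on it, or at the probe's own value where that was higher.

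Mx1, a dynamin-like GTPase that blocks influenza viruses, read -7.02 and -6.94 in unstimulated cells, not well above background, -2.54 and -2.30 at 24 h and -0.58 and 0.73 at 48 h. It rose by a further 5.63-fold after 24 h (log2 2.49, SE 0.40, limma adjusted p = 0.112), and was at least 27.8-fold above unstimulated cells at 48 h. Oas1a, an oligoadenylate synthetase that activates RNase L, was well above background in every group, with -3.60 and -2.10 in unstimulated cells, 2.23 and 3.20 at 24 h and 4.49 and 5.08 at 48 h. The groups followed each other without overlap, and the later step was 4.21-fold (log2 2.07, SE 0.55, limma adjusted p = 0.221), on a gene already 47.2-fold higher at 24 h. A further probe for Oas1a gave a later change of 2.04. Against the 24 h array of its own slide Oas1a was 1.59 higher and no longer passed.

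Gm14446 (Ifit1bl1 in RefSeq), of the Ifit family, whose members bind viral RNA, read -6.04 and -7.00 in unstimulated cells, where it was not well above background. It read -2.49 and -2.70 at 24 h and -0.37 and 0.72 at 48 h, a later rise of 6.84-fold (log2 2.77, SE 0.44, limma adjusted p = 0.109). BC094916 (Ifi214), of the family of interferon-inducible nuclear proteins, read -4.06 and -3.69 at 24 h and -1.25 and -0.58 at 48 h, 7.78-fold higher (log2 2.96, SE 0.78, limma adjusted p = 0.22), with 1 of its unstimulated arrays, at -7.07 and -4.50, above background. In both genes the arrays of the 3 groups did not overlap.

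Other interferon-stimulated genes that kept rising are given by their later changes. They were chosen for their known roles after their values were seen. Ifit1 rose by a further 1.67 on the log2 scale and Ifit3 by 1.38. Usp18, which removes ISG15 from proteins and dampens interferon signaling, rose by 1.37, and Isg15 itself by 1.17. Irf7, a transcription factor that amplifies type I interferon production, rose by 1.24. The interferon-inducible GTPases Igtp, Iigp1, Gbp2 and Tgtp2 rose by 1.67, 1.55, 1.47 and 2.34. Bst2 (tetherin) rose by 1.43, Ifi44 by 1.90 and Xaf1 by 1.01. Cd274, which encodes PD-L1, the ligand of the T cell inhibitory receptor PD-1, rose by 1.83 after a first rise of 2.59. Ifit2 was different in order: its arrays at -0.45 and -0.49 in unstimulated cells and -0.48 and -0.27 at 24 h overlapped, and the rise of 1.84 came after 24 h, to 1.01 and 1.93.

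RefSeq promoters (250 bases before to 50 after a gene's start, build GRCm38.p6) were searched on both strands for the ISRE as GAAA, any 2 bases, GAAA, which reads TTTC, any 2 bases, TTTC on the other strand. The GAS was searched as TTCNNNGAA, which is its own reverse complement, and matches can share letters. The ISRE was present for 22 of the 60 kept-rising genes with a promoter in the table (36.7%). It was present for 3.63% of the 11093 measured genes with a promoter and 3.99% of all 27025 genes. Among late-rise genes it was found in 2 of 44 (4.55%), and among transient-rise genes in 1 of 26 (3.85%), Saa3. The GAS was found in 13.3% of the kept-rising, 15.4% of the transient-rise and 6.82% of the late-rise genes, against 8.44% of measured genes, and 5 kept-rising genes held both motifs. No test was made of these shares, which describe letters in a window and not binding. The stretches below, on the gene's own strand with the matched letters in capitals, show the motif where it stood in kept-rising genes of different roles, and in Saa3:
Rsad2 (chr12:26456533-26456602, minus strand): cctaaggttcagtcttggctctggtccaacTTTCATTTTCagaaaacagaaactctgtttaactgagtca
Ifit1 (chr19:34640755-34640843, plus strand): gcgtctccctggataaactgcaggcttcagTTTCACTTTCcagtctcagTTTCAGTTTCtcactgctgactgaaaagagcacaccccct
Isg15 (chr4:156200845-156200926, minus strand): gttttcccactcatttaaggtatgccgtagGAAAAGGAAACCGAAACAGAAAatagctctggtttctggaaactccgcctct
Oas1a (chr5:120907500-120907575, minus strand): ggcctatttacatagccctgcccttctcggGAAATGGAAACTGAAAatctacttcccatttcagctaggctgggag
Bst2 (chr8:71537557-71537632, minus strand): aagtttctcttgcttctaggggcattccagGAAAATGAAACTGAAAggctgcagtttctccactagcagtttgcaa
Igtp (chr11:58199492-58199561, plus strand): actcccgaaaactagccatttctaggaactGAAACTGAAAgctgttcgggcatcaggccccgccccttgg
Gbp2 (chr3:142620574-142620643, plus strand): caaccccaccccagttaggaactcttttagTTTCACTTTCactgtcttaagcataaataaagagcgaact
Cxcl10 (chr5:92349063-92349132, minus strand): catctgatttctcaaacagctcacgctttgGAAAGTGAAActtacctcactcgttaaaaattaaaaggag
H2-T23 (chr17:36032786-36032855, minus strand): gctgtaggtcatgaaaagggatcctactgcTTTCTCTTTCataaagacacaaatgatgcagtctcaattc
Ifi214 (chr1:173535997-173536066, minus strand): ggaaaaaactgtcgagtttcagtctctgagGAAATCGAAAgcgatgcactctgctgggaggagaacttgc
Mmp13 (chr9:7272338-7272407, plus strand): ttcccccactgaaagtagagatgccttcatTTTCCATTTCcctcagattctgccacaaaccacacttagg
Saa3 (chr7:46715762-46715831, minus strand): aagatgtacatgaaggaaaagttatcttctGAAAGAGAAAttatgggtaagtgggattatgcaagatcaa
The Isg15 stretch held 3 overlapping matches that end in one run of capitals, and Oas1a and Bst2 held 2 overlapping matches each. In Ifit1 there were 2 separate matches. The first matched base lay 20 bases before the start in Oas1a, 34 in Igtp and 59 in Gbp2, and 213 in Cxcl10.

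**Figure D3:**
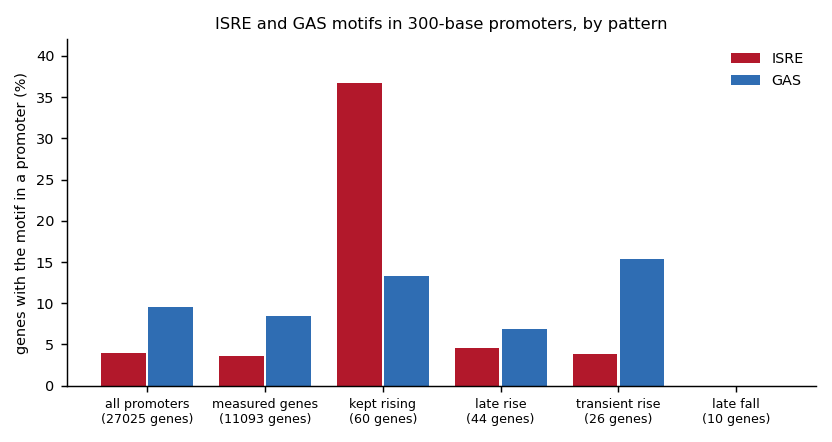
Bars give the percentage of genes (y axis) with at least 1 ISRE (red) or GAS (blue) match in a RefSeq promoter, for all genes with a promoter, for measured genes and for each pattern, with the number of genes in brackets. The ISRE bar stands at 36.7% for kept-rising genes and between 3.63% and 4.55% for all, measured, late-rise and transient-rise genes. The late-fall genes have 0 matches in 10 genes.

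Antigen presentation by MHC class I moved alongside. Of 20 measured genes on the list, 7 rose and 0 fell after 24 h, against 0.779% and 0.303% of all genes. All 20 changes were above 0, against 35.7%, and the median was 0.89 against -0.07 for all genes. At 24 h, 13 of the 20 had passed the thresholds with a list median of 1.26, which was the same with the 3 genes dim on both unstimulated arrays at their limit. Tap2, a subunit of the peptide transporter, read -4.82 and -5.45 in unstimulated cells, not well above background. It then read -2.29 and -1.85 at 24 h and 0.06 and 0.51 at 48 h. The replicate pairs stayed close and apart from each other, with a later rise of 5.11-fold (log2 2.35, SE 0.28, limma adjusted p = 0.082) and a level at least 32.1-fold above unstimulated cells at 48 h.

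H2-D1, a classical class I heavy chain, read -1.61 and -1.22 in unstimulated cells, 1.43 and 1.98 at 24 h and 3.46 and 3.94 at 48 h. It thus rose 8.69-fold and then a further 3.98-fold (log2 1.99, SE 0.26, limma adjusted p = 0.0903). The nonclassical H2-Q7 followed the same course, from -1.98 and -1.86 through 0.65 and 1.24 to 2.79 and 3.22, a later rise of 4.18-fold (log2 2.06, SE 0.23, limma adjusted p = 0.0756). The other classical chain, H2-K1, rose by 1.75 after 24 h, H2-T23 by 1.68 and the immunoproteasome subunit Psmb8 by 1.37. Probes of 11 class I heavy chains shared between 18 and 44 of 60 bases with each other, so some signal may be shared between these genes, which was not tested. Without 24 h replicate 1, 19 of the 20 changes were above 0, and without 48 h replicate 1 or 24 h replicate 2 18 of 20. Between 6 and 9 of the 20 rose with an array left out.

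Genes of the cornified envelope, the protein shell of squamous epithelia, and the stefin A cysteine protease inhibitors held the largest single increase. Of 13 measured genes on this list, 7 rose and 0 fell, against 0.779% and 0.303% of all genes, with a median of 1.47. The median was 0.69 against the 24 h array of the same slide, and on the 10 genes above background on all 6 arrays it was 0.36, with 4 of them called. The methods' t-test called 5 of the 13. The other 19 genes of the list that the array holds were not above background on all 4 stimulated arrays, so the count describes the detected members. Among those above background on 3 of the 4, Tgm1 read -2.89 and -2.25 at 24 h and -4.17 and -3.87 at 48 h. Sprr4 likewise read lower, at -3.22 and -3.64 and then -4.05 and -4.16, whereas Cnfn read higher at 48 h and Ivl overlapped. These differences were not tested. Sprr2d, a small proline-rich envelope protein, was not well above background in unstimulated cells, at -6.97 and -6.87. It read -3.33 and -3.08 at 24 h and 0.28 and -0.62 at 48 h, the largest increase of the comparison at 8.19-fold (log2 3.03, SE 0.29, limma adjusted p = 0.0705). Sprr2e, at -2.10 and -1.65 in unstimulated cells and -1.50 and -0.58 at 24 h, did not pass the thresholds at 24 h. It then reached 1.87 and 1.48, 6.56-fold higher (log2 2.71, SE 0.33, limma adjusted p = 0.0902). The Sprr2e arrays at 24 h lay apart by more than those at 48 h, and the rise from the array of the same slide was 2.25.

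Among the stefins, Stfa2l1 read -6.48 and -5.52 in unstimulated cells, not well above background. It read 1.81 and 2.35 at 24 h and 4.16 and 4.72 at 48 h. It was at least 111-fold higher at 24 h and rose by a further 5.14-fold (log2 2.36, SE 0.37, limma adjusted p = 0.109). 2010005H15Rik (Csta2 in RefSeq), above background in every group, went from -1.33 and -1.57 through 3.32 and 3.67 to 6.22 and 6.51, first 30.9-fold and then 7.31-fold (log2 2.87, SE 0.18, limma adjusted p = 0.064). Its replicate arrays lay close together in every group. Gm5416 (Csta3) read -1.37 and 0.04 at 24 h and 1.39 and 2.13 at 48 h, a rise of 5.36-fold (log2 2.42, SE 0.47, limma adjusted p = 0.142). Its unstimulated arrays were not well above background. The 6 stefin A probes compared shared between 19 and 35 of 60 bases. Among other genes of the list, Sprr1a differed by 0.26, Sprr2a2 by -0.01 and Stfa2 by -0.01, and loricrin (Lor) by -0.44, without reaching 2-fold.

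Outside these groups, Lilrb4 (Lilrb4a), an inhibitory receptor known from myeloid cells, read -6.71 and -6.69 in unstimulated cells, not well above background. It read -3.50 and -2.94 at 24 h and -1.03 and -0.01 at 48 h. It rose by a further 6.5-fold (log2 2.70, SE 0.35, limma adjusted p = 0.0903), and its dimmer probe, above background on 3 stimulated arrays, gave 0.89. Scg2, a secretory granule protein of neuroendocrine cells, read -5.51 and -4.16 in unstimulated cells, above background on 1 array, then -1.01 and -1.04 at 24 h and 1.27 and 1.51 at 48 h, a later rise of 5.34-fold (log2 2.42, SE 0.41, limma adjusted p = 0.119). In both genes the 48 h arrays lay above the 24 h arrays without overlap. Of the 19 measured genes on the list of chemokines and inflammatory cytokines, 2 rose, Ccl8 and Cxcl10, against 0.779% of all genes. The median change of the list was 0.01. Ccl12, a chemokine outside this list, was also among the kept-rising genes.

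Ccl8, a monocyte-attracting chemokine, read 0.32 and 0.42 in unstimulated cells, 2.57 and 3.4 at 24 h and 4.32 and 4.72 at 48 h, 2.89-fold higher at the later time (log2 1.53, SE 0.28, limma adjusted p = 0.134). Cxcl10, an interferon-induced chemokine for T cells, went from -3.16 and -2.65 to 2.70 and 2.59 at 24 h and 3.31 and 3.97 at 48 h. Most of the Cxcl10 change lay before 24 h, 46.7-fold, and the later step of 2.0-fold (log2 1.0, SE 0.26, limma adjusted p = 0.22) stood at the threshold itself. It was 0.67 without 48 h replicate 2 and 0.95 without 24 h replicate 2, and a dim second probe gave -0.39. Mmp13, a collagenase, read -4.74 and -3.36 in unstimulated cells, -1.12 and 0.06 at 24 h and 0.46 and 1.68 at 48 h, a rise of 3.04-fold (log2 1.6, SE 0.64, limma adjusted p = 0.367) whose replicates were widely spread in both groups. It did not pass without 24 h replicate 1 (1.02) or without 48 h replicate 2 (0.996).

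**Figure D4:**
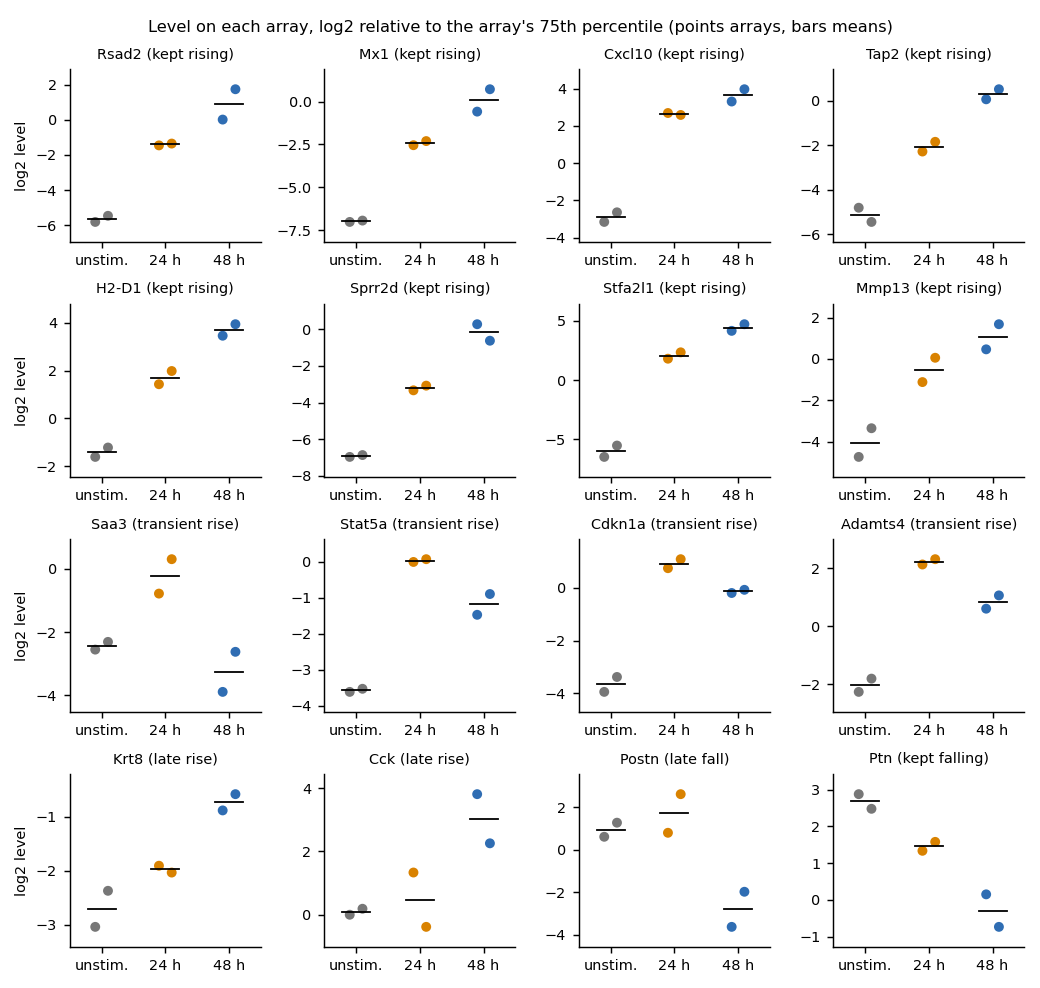
Each panel gives 1 gene's log2 level relative to the array's 75th percentile (y axis) on the 2 arrays of unstimulated cells, 24 h and 48 h (points), with the group mean as a bar. Panels have their own y axis. In Rsad2, Mx1, Tap2 and H2-D1 the groups climb in order, in Saa3, Stat5a, Cdkn1a and Adamts4 the 24 h arrays are highest, and Postn falls below every earlier array at 48 h.

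Genes that rose after 24 h without passing earlier included the interferon-stimulated Ifit2 and the class I gene H2-Q10, besides genes of other roles. Cck, which encodes the peptide hormone cholecystokinin, read 0.00 and 0.19 in unstimulated cells, 1.33 and -0.39 at 24 h and 3.81 and 2.25 at 48 h. Its replicates differed by more than 1 log2 unit at each stimulated time, and the rise was 5.89-fold (log2 2.56, SE 0.68, limma adjusted p = 0.22). Gm6093, at -3.67 and -3.34, -2.46 and -2.64 and -0.47 and -0.55 in the same order, was 4.11-fold higher at 48 h than at 24 h (log2 2.04, SE 0.15, limma adjusted p = 0.064). 2310043J07Rik (Upk3bl), a uroplakin-like gene, read -2.51 and -2.49, -3.26 and -3.37 and -1.6 and -1.26, with a 24 h level under that of unstimulated cells and a later rise of 3.69-fold (log2 1.88, SE 0.14, limma adjusted p = 0.064). Its other probe gave 1.55.

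Krt8, a keratin of simple epithelia such as the luminal prostate, read -3.04 and -2.37 in unstimulated cells, -1.91 and -2.03 at 24 h and -0.88 and -0.58 at 48 h. It rose 2.37-fold (log2 1.24, SE 0.24, limma adjusted p = 0.138), and its other probe gave 0.15. Of the 16 measured genes on the list of keratins and junction genes, Krt8 was the 1 that passed. Krt13 and Krt36, keratins outside that list, were late-rise genes too. Krt4 and Krt78, also outside it, went the other way. They were above background on both 24 h arrays and neither 48 h array, at least 2.1-fold and 1.65-fold lower at 48 h. C4b, a complement component, read -3.52 and -2.84 at 24 h and -2.12 and -1.77 at 48 h, 2.36-fold higher (log2 1.24, SE 0.25, limma adjusted p = 0.145), and was 0.90 higher without 24 h replicate 1, under 2-fold. The stress-response factor Ddit3 (CHOP) did not pass at 24 h, with -0.96 and -0.55 and then -0.72 and -0.69, and read 0.01 and 0.62 at 48 h, 2.03-fold higher (log2 1.02, SE 0.24, limma adjusted p = 0.182). Without 48 h replicate 2 the Ddit3 change was 0.714, under 2-fold, and 1 other gene of the 21 on the unfolded protein response list, Chac1, had an unadjusted p-value under 0.05, at 0.61.

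Mmp3 (stromelysin 1) read -1.01 and 0.38, 0.53 and 0.90 and 1.66 and 2.07 in the order unstimulated, 24 h and 48 h. The later rise of 2.22-fold (log2 1.15, SE 0.44, limma adjusted p = 0.353) did not pass when any 1 of the 4 stimulated arrays was left out, with values from 0.943 to 1.36. Among the remaining late-rise genes, named after their values were seen, Krt13 rose by 1.65, Il18bp, a decoy receptor for interleukin-18, by 1.53, Samhd1, a nucleotide hydrolase that restricts viruses, by 1.08, and the surface proteins Ly6a and Ly6c1 by 1.14 and 1.1.

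Mpeg1 (perforin-2, a pore-forming protein known from macrophages) was also among the late-rise genes. At 24 h it was already 1.93-fold above unstimulated cells, short of the 2-fold threshold. It read -1.95 and -1.75 in unstimulated cells, -0.94 and -0.85 at 24 h and 1.06 and 1.48 at 48 h, 4.5-fold higher at the later time (log2 2.17, SE 0.17, limma adjusted p = 0.064), with replicates close together in each group. A dimmer probe gave 1.39. It was the 1 gene of 10 measured macrophage markers that changed, and the median of the list was -0.20 (-0.02 under median centring). Of 25 macrophage markers other than the transduced receptor, 17 and 11 were above background on the 24 h arrays and 9 and 16 on the 48 h arrays. Their summed level, in multiples of the 75th percentile, was 46 and 38.2 at 24 h and 42.6 and 33.8 at 48 h. Lyz2, Cd163, C1qc, Trem2 and Sfpi1 (PU.1) were not above background on any stimulated array. Cd68 and Siglec1 were on 3 of the 4, and Tyrobp, Lyz1, Aif1 and Fcgr1 on 2. Of the measured markers, Ptprc (CD45) differed by -0.53, Mrc1 by -0.71 and C1qa by -0.56. Whether other cells contributed to Mpeg1 was not tested.

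The genes that were high at 24 h and fell afterwards included an acute phase protein, signaling regulators and a matrix protease. Saa3, an acute phase serum amyloid, read -2.55 and -2.31 in unstimulated cells, -0.78 and 0.31 at 24 h and -3.89 and -2.62 at 48 h. Both 48 h arrays lay below the 24 h pair and also below the unstimulated pair, and the fall was 8.09-fold (log2 -3.02, SE 0.50, limma adjusted p = 0.118). Slurp1, a secreted Ly6-related protein of keratinocytes, followed the same course, from -1.51 and -1.59 through 0.21 and 0.77 to -2.24 and -2.32, a fall of 6.8-fold (log2 -2.77, SE 0.19, limma adjusted p = 0.064).

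Cyp26b1, which degrades retinoic acid, read 1.61 and 1.49 in unstimulated cells, 3.26 and 3.79 at 24 h and 1.01 and 2.10 at 48 h, back at the unstimulated mean. Its fall after 24 h was 3.93-fold (log2 -1.98, SE 0.37, limma adjusted p = 0.134), and the 48 h arrays lay on either side of the unstimulated ones. Cgref1, a calcium-binding growth regulator, read -4.57 and -5.31 in unstimulated cells, -2.17 and -1.87 at 24 h and -4.19 and -3.45 at 48 h, 3.48-fold lower (log2 -1.80, SE 0.33, limma adjusted p = 0.131), and Gm1045 (Odaph), an enamel protein, -1.29 and -1.03 and -3.25 and -2.44, 3.22-fold lower (log2 -1.69, SE 0.37, limma adjusted p = 0.168). Rgs16, which shortens G protein signaling, read -2.27 and -0.79 at 24 h and -3.41 and -3.01 at 48 h, a fall of 3.21-fold (log2 -1.68, SE 0.48, limma adjusted p = 0.245) that rested on the higher 24 h array. Without 24 h replicate 2 the Rgs16 change was -0.94, and without 48 h replicate 1 it was -1.48 and did not pass.

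Stat5a, a transcription factor activated by cytokine receptors, was the 1 gene of 30 on the JAK-STAT list that changed, and the list's median was -0.11 (0.08 under median centring). It read -3.61 and -3.52 in unstimulated cells, 0.00 and 0.07 at 24 h and -1.47 and -0.89 at 48 h. The fall of 2.32-fold (log2 -1.22, SE 0.20, limma adjusted p = 0.113) left it 5.23-fold above unstimulated cells, and it was -0.93, under 2-fold, without 48 h replicate 1. The cytokine feedback inhibitors on the same list did not reach 2-fold: Socs3 differed by -0.83, Cish by -0.33, Socs2 by -0.34 and Socs1 by 0.33. Cdkn1a (p21, a CDK inhibitor) read -3.95 and -3.38, 0.75 and 1.09 and -0.19 and -0.07 in the same order, 24.1-fold up and then 2.08-fold down (log2 -1.05, SE 0.22, limma adjusted p = 0.158). At 48 h Cdkn1a was still 11.6-fold above unstimulated cells. Another Cdkn1a probe above background gave -0.39, and the change was -0.88 without 24 h replicate 2 and -0.99 without 48 h replicate 1.

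Adamts4, an aggrecan-cleaving protease, read -2.27 and -1.81 in unstimulated cells, 2.14 and 2.32 at 24 h and 0.61 and 1.07 at 48 h, a later fall of 2.62-fold (log2 -1.39, SE 0.22, limma adjusted p = 0.109) with non-overlapping pairs while its other probe gave -1.35. At 48 h Adamts4 was still 7.34-fold above unstimulated cells. With Mmp13 and Mmp3 higher and Adamts4 lower, the 20 measured matrix proteases and inhibitors had a median of -0.04 (0.14 under median centring). Itgb3, the beta subunit of the vitronectin receptor, was not well above background in unstimulated cells, at -5.16 and -5.47. It read -1.43 and -0.30 at 24 h and -2.44 and -1.55 at 48 h, 2.19-fold lower (log2 -1.13, SE 0.44, limma adjusted p = 0.353). At 48 h it was still at least 6.64-fold above unstimulated cells. It lost the call without any 1 array other than 24 h replicate 1 and 48 h replicate 2, the smallest change being -0.56. Gsta1, a glutathione transferase, read -0.25 and -0.76, 0.77 and 0.31 and -0.64 and -0.53, 2.18-fold lower at 48 h than at 24 h (log2 -1.13, SE 0.22, limma adjusted p = 0.148), and was -0.90, under 2-fold, without 24 h replicate 1. Gsta2 and Gm10639 fell with it, by 1.15 and 1.18, and the closest pair of these 3 probes shared 53 of 60 bases, so they are not separate measurements for certain. Further genes of the transient-rise pattern are named after their values were seen. Sema7a fell by 1.45 after a first rise of 6.19, and so stayed above unstimulated cells at 48 h. Sele (E-selectin) fell by 1.34, Lrg1 by 1.12 and the iron-scavenging Lcn2 by 1.04.

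Postn (periostin, a secreted matrix protein) had the largest decrease of the comparison. It read 0.62 and 1.28 in unstimulated cells, 0.81 and 2.62 at 24 h and -3.62 and -1.97 at 48 h, 22.8-fold lower (log2 -4.51, SE 0.74, limma adjusted p = 0.117). The replicates were wide apart at both stimulated times, and the 48 h arrays lay below all others by more than that spread. Lbp, which binds bacterial lipopolysaccharide, read -0.94 and -0.15, -0.10 and 1.15 and -2.39 and -0.92, a fall of 4.52-fold (log2 -2.18, SE 0.61, limma adjusted p = 0.236) that did not pass without 24 h replicate 2 (-1.55). Of the 16 measured acute phase and complement genes, Saa3, Lbp and Lcn2 fell, C4b rose, and the median was -0.27.

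Cbr2, a carbonyl reductase, read lower at each time, from 0.98 and 0.90 through -0.26 and 0.45 to -2.19 and -2.13, and passed for the later step, 4.77-fold (log2 -2.25, SE 0.23, limma adjusted p = 0.0705) while its other probe gave -0.81. Ptgds, prostaglandin D synthase, read -0.795 and -0.308 in unstimulated cells, -0.04 and 0.96 at 24 h and -1.44 and -0.46 at 48 h. The later fall was 2.65-fold (log2 -1.41, SE 0.44, limma adjusted p = 0.27), and the 48 h arrays overlapped the unstimulated ones. Ptgds lost the call without 24 h replicate 2 (-0.905) or 48 h replicate 1 (-0.914). The pattern of falling at both steps held 2 genes. Ptn (pleiotrophin, a heparin-binding growth factor) read 2.88 and 2.48, 1.34 and 1.58 and 0.15 and -0.73, with a later fall of 3.36-fold (log2 -1.75, SE 0.31, limma adjusted p = 0.126) while its other probe gave -1.58. Acta2, smooth muscle actin, read 3.88 and 4.61, 1.42 and 2.55 and 0.48 and 1.05, with a later fall of 2.32-fold (log2 -1.22, SE 0.43, limma adjusted p = 0.321), which was -0.65 without 24 h replicate 2 and -0.934 without 48 h replicate 1 and passed in neither. Under median centring Acta2 was -1.03 and lost the call. Of the 11 smooth muscle contractile genes measured, Acta2 was the 1 that passed. Actg2, another actin of smooth muscle, read -0.78 and 0.36, -2.79 and -0.73 and -3.85 and -2.90 in the same order, a difference of -1.61 (SE 0.74, limma adjusted p = 0.416) that was larger than that of Acta2 and did not pass. With the replicate block, with the intensity trend or without 24 h replicate 1, 2 of the 11 fell.

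The reverse course, down at 24 h and up again at 48 h, was found in 12 genes. Foxred2, an oxidoreductase of the endoplasmic reticulum, read -0.76 and -0.31 in unstimulated cells, -2.41 and -3.21 at 24 h and -0.73 and -0.51 at 48 h. It had returned to the unstimulated level by the later time, a rise of 4.56-fold (log2 2.19, SE 0.29, limma adjusted p = 0.0903), and its other probe gave 1.12. Dmpk, a serine/threonine kinase of muscle, read 1.03 and 1.85, 0.08 and -0.03 and 1.69 and 1.78, a rise of 3.26-fold (log2 1.71, SE 0.26, limma adjusted p = 0.105) to within the range of unstimulated cells while its dimmer probe gave 0.41. Rab3il1, an exchange factor for Rab proteins, rose by 1.56, Hrct1 by 1.54 and Rap1gap, which switches off Rap1, by 1.35 (0.861 without 24 h replicate 2). At 48 h, 8 of the 12 genes were within 2-fold of unstimulated cells and 4 were still lower.

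Other gene groups showed small shifts in which no or almost no gene reached 2-fold. Mitosis genes lay lower at 48 h: 0 of 31 passed the thresholds, but 18 had an unadjusted p-value under 0.05 and lower levels, against 8.29% of all genes, and the median was -0.35 (-0.17 under median centring, where all genes stood at 0.11). Both 48 h arrays lay below both 24 h arrays for 27 of the 31, against 32.7% of all genes. Nuf2, of the kinetochore, read 0.60 and 0.78 at 24 h and 0.09 and 0.26 at 48 h, a difference of -0.52 (SE 0.13, limma adjusted p = 0.194), and Cdca8, of the chromosomal passenger complex, differed by -0.47 (SE 0.13, limma adjusted p = 0.224). Genes of DNA replication had a median of -0.04 (0.14 under median centring), and 2 of 35 had an unadjusted p-value under 0.05, Prim1 at -0.56 and Rfc5 at -0.41.

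ERK feedback and immediate early genes had a median of -0.29 (-0.10 under median centring), and 12 of 30 had an unadjusted p-value under 0.05 with lower levels, against 8.29% of all genes. None reached 2-fold: Dusp5, an ERK phosphatase, read -1.50 and -1.47 in unstimulated cells, 0.58 and 0.87 at 24 h and -0.23 and -0.18 at 48 h, a difference of -0.94 (SE 0.13, limma adjusted p = 0.0956). Fos differed by -0.83 (adjusted p = 0.348), Egr2 by -0.82 and Junb by -0.65, whereas Myc differed by 0.05 and Dusp6 by -0.19. Of 10 ERBB ligands and receptors 0 passed: the ligand Ereg (epiregulin) read 2.95 and 3.51 at 24 h and 2.21 and 2.39 at 48 h, a difference of -0.93 (SE 0.20, limma adjusted p = 0.164), and Areg (amphiregulin) differed by -0.92 (adjusted p = 0.403). Without 24 h replicate 1, Dusp5, Fos and Ereg passed the thresholds, at -1.08, -1.15 and -1.21. Fos and Ereg also passed without 48 h replicate 2, at -1.23 and -1.02, and Areg without 24 h replicate 2, at -1.47.

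Cholesterol and fatty acid synthesis lay slightly higher at 48 h, with a median of 0.25 (0.44 under median centring), 25 of 28 genes above 0 (35.7% of all genes), 8 higher with an unadjusted p-value under 0.05 (5.04% of all genes) and 0 at 2-fold. Idi1, of the mevalonate pathway, read 3.07 and 3.11 in unstimulated cells, 2.05 and 2.37 at 24 h and 2.92 and 2.77 at 48 h, a difference of 0.63 (SE 0.14, limma adjusted p = 0.172), and Cyp51, a sterol demethylase, differed by 0.51 (adjusted p = 0.241). Both had been lower at 24 h than in unstimulated cells, with differences of -0.88 and -0.92. Collagens and their modifying enzymes had a median of 0.16, with Col18a1 at 0.69 (adjusted p = 0.168) and Col8a1 at -0.58 (adjusted p = 0.436). Regulators of BMP, TGF-beta and WNT signaling had a median of 0.20 and 0 of 21 called. Inhba, an activin subunit, differed by -0.90 (adjusted p = 0.22), and Tgfbi by 1.66 (SE 1.6, limma adjusted p = 0.681), with 48 h arrays at 0.90 and -4.37 on either side of the 24 h arrays. Inhba passed without 24 h replicate 1, at -1.22, and without 48 h replicate 2, at -1.1, and Tgfbi without 48 h replicate 2, at 4.30.

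Glycolysis and hypoxia genes had a median of 0.00 (0.19 under median centring) and 0 of 24 called. Vegfa differed by -0.78 (adjusted p = 0.239) and Ankrd37 by -0.57 (adjusted p = 0.396), and Vegfa passed without 24 h replicate 1, at -1.1. The 31 cytosolic ribosomal proteins had a median of -0.12 (0.06 under median centring) and 25 oxidative phosphorylation genes -0.03 (0.15 under median centring), with 0 genes called in each and 0 under an unadjusted 0.05. Rpl18 and Rpl14 differed by -0.24 and -0.22, Ndufa9 and Ndufa4 by -0.20 and -0.15. The lists of matricellular proteins (-0.01), laminins and integrins (-0.02), keratins and junctions (0.04), smooth muscle genes (-0.08), retinoid, glutathione and NRF2 genes (0.03), p53 targets (0.14) and the unfolded protein response (0.05) had medians within 0.25 of that of all genes. Under median centring each of these medians lay above 0.

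**Figure D5:**
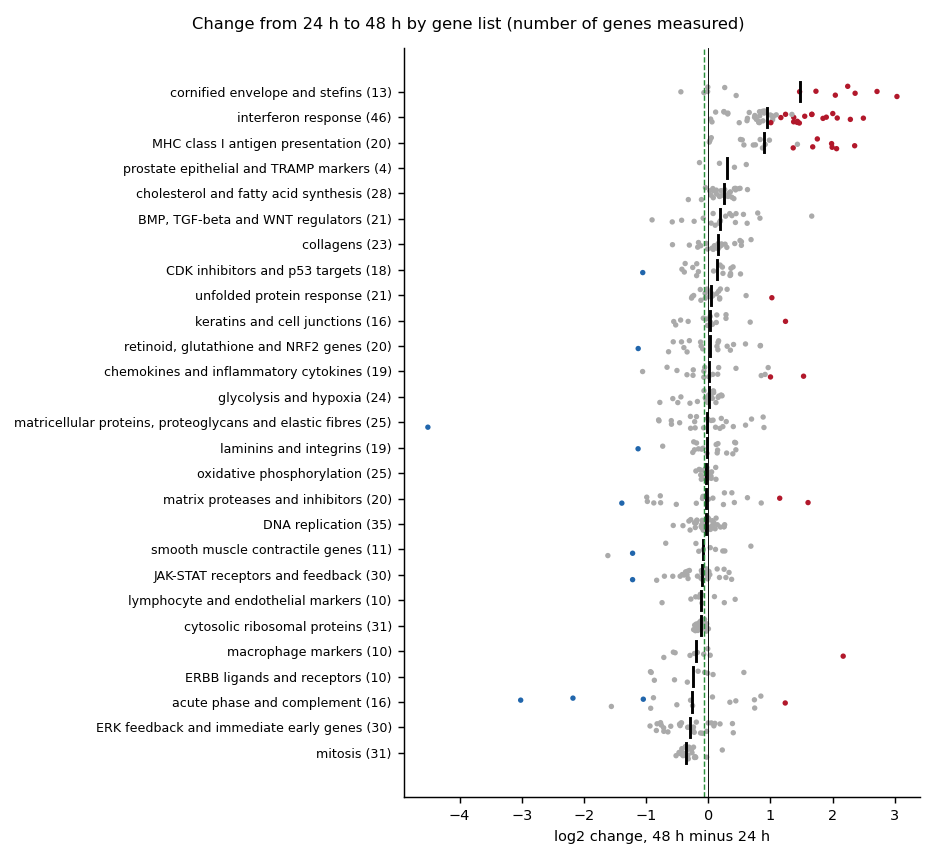
Each point is a measured gene of 1 of the 27 lists, placed by its log2 change from 24 h to 48 h (x axis). Red points rose, blue points fell, black bars are list medians and the dashed line is the median of all genes, -0.07. The interferon, MHC class I and cornified envelope lists lie to the right with medians of 0.95, 0.89 and 1.47, which were 0.78, 0.78 and 0.69 against the 24 h array of the same slide, and the mitosis list lies to the left with -0.35.

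The cells were checked against markers. Of 10 prostate epithelial and TRAMP markers, 4 were above background on all stimulated arrays. Fkbp5 differed by 0.61 (adjusted p = 0.158). The summed level of the 10 was 22.2 and 20.3 at 24 h and 29.4 and 25.8 at 48 h. Foxa1, Hoxb13 and the epithelial cadherin gene Cdh1 were not above background on any stimulated array, and Epcam and Krt18 were on 1 and 3 of 4. Lymphocyte and endothelial markers summed to 51.7 and 50.2 at 24 h and 49.3 and 54.5 at 48 h, with 0 of 10 measured genes called. Cd79a differed by 0.43 (adjusted p = 0.667), and its other probe gave -0.42.

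The receptor, its ligand and osteopontin, on which the study centres, did not pass between the times. Csf1r read 4.88 and 5.13 in unstimulated cells, 5.12 and 5.34 at 24 h and 4.96 and 4.90 at 48 h, a difference of -0.29 (SE 0.14, limma adjusted p = 0.434). Of its other probes, 1 gave -0.27 and another 0.29. Csf1, expressed by the cells themselves, differed by -0.34 (SE 0.28, limma adjusted p = 0.635), and its 24 h and 48 h arrays overlapped. Spp1, which encodes osteopontin, read 2.55 and 3.36, 6.24 and 6.52 and 5.79 and 6.05 in the order unstimulated, 24 h and 48 h. Both 48 h arrays of Spp1 lay below both 24 h arrays, by -0.46 on average (SE 0.28, limma adjusted p = 0.522), and above both unstimulated arrays.

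Genes detected at 1 stimulated time only are outside the 21816. Of the 36028 genes with a usable probe, 182 were well above background on both 24 h arrays and neither 48 h array. A limit of at least 2-fold was reached by 39 of them. On both 48 h arrays and neither 24 h array there were 102 genes, 16 of them with such a limit. Detection differed between arrays, with 72% and 59.7% of spots well above background at 24 h and 58.7% and 70.4% at 48 h. How far this moved the counts was not tested. The 182 and 102 genes were not tested in this fit. Among genes of the lists, Saa2, an acute phase relative of Saa3, read -2.71 and -1.18 at 24 h and -6.24 and -7.05 at 48 h, at least 6.63-fold lower at the later time. Gbp4, an interferon-induced GTPase, read -4.53 and -5.37 at 24 h and -2.77 and -1.63 at 48 h, at least 4.5-fold higher. Sprr2g was at least 8.01-fold higher at 48 h and Ctss, a lysosomal cysteine protease of antigen presentation, at least 3.04-fold. Complement factor B (Cfb), at -3.53 and -3.70 at 48 h, was at least 1.69-fold higher.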

How the data were processed

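Cyanine 3-labelled cRNA of 6 samples (2 per group) was hybridised to Agilent single-color mouse arrays. The deposited intensity columns were written by the authors with Feature Extraction 11.0.1, and gProcessedSignal is already background-subtracted. A deposited log2 table of the same arrays served as an alternative, and 99.81% of its differences between arrays lay within 0.05 of those used here, and its scale per probe and centring are not stated. Here, control and outlier-flagged spots were left out (303 probes, 135 genes), spots of a probe were averaged, each array was shifted to its 75th percentile, and the brightest probe stood for a gene. All 6 arrays entered 1 limma fit (limma 3.58.1, R 4.3.3) over 21816 genes, with 3 residual degrees of freedom and Benjamini-Hochberg adjustment over all of them. Replicates came from independent experiments, and their number limits the precision. Of the genes, 12571 matched RefSeq by symbol, 1437 by accession, 165 by synonym, and 7643 kept the file's name. The members, the 27 gene lists (576 of 725 genes on the array measured) and the tests were chosen with earlier results of these data known. Named genes are the 10 largest increases and decreases with a RefSeq symbol and no overlap, up to 5 per pattern and 3 per list by size, up to 2 uncalled genes of a list without calls, and Spp1, Csf1r and Csf1; others are named as chosen after their values were seen, or to give a list's other members. The fit was run on data simulated from its own model, without slide or replicate effects. That run checks the code and cannot show whether the p-values hold for these arrays. Alternatives varied the normalization, background correction, filter, probe rule, prior, blocks, test and arrays. A few named genes are not reported here.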

Additional observations from a re-analysis of the deposited data

How the results depend on the processing

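With 2 arrays per group, all calls rest on the 2-fold change and an unadjusted p-value, and the cause of the shifts below was not tested. Quantile normalization gave 43 genes lower, 19 called after adjustment, 17 late falls and 27 transient falls. Median centring gave 299 higher, 27 lower, 149 adjusted, 16 transient rises, 130 late rises, 9 late falls and 53 transient falls. Normexp background correction gave 22 lower, 254 adjusted, 13 transient rises, 7 late falls and 6 transient falls, and with quantile normalization the same except for 318 adjusted. Requiring signal above background on all 6 arrays, which removes genes dim in unstimulated cells, gave 5 adjusted and 61 kept-rising genes, and an intensity trend in the prior spread 213 adjusted. With slide as a block, which leaves 24 h replicate 1 without weight, there were 138 lower, 87 transient rises, 47 late falls, 4 kept falling and 38 transient falls, and the share of higher genes among those called was 59.5%. The methods' t-test gave 88 higher, 29 lower, 41 kept-rising, 14 transient-rise, 15 late-fall, 0 kept-falling and 3 transient-fall genes. Leaving out 1 array at a time gave 174 to 277 higher, 67 to 138 lower, 0 to 15 adjusted, 76 to 136 kept rising, 31 to 87 transient rise, 60 to 125 late rise, 27 to 76 late fall, 2 to 4 kept falling and 10 to 38 transient fall. Samples of one replicate number deviated together (correlations of 0.22, 0.173 and 0.273), and the RNA came from 2 independent experiments, but the labels do not say that a number marks an experiment, so the pairing is not settled. With the replicate block 12 genes passed adjustment, 174 were higher and 72 lower. Of the 49 named genes called, 19 kept the call in every alternative that gave a value, 12 lost it only under the t-test and 18 under another, and 9 named genes not called gained a call. With 1 array left out Tgfbi ran from -0.971 (without 48 h replicate 1) to 4.30 and Cd79a from -0.201 (without 48 h replicate 2) to 1.07, and both thus reversed, as did Ndufa4 at 0.0371 under median centring. With only the 4 stimulated arrays no pattern could be formed. A fit over 24634 genes above background in at least 1 group gave 214 higher and 346 lower, 0 adjusted, of which 165 higher and 65 lower were among the 21816.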
